A study of Homo sapiens with 44 samples.

Results

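OVCAR5 cells, an ovarian carcinoma line carrying CFP and a reporter of IFNγ sensing, were exposed to a 1/2 dilution of supernatant from a co-culture of tumor cells with T cells and set against unstimulated cells. The libraries were chosen by their treatment labels and paired by duration. There were 4 under supernatant 1/2, at 2, 6, 12 and 24 h of continuous exposure, and 4 of unstimulated cells at the same durations, 8 of the 44 libraries of the series. A pair of further groups of 4 libraries each, at the same durations, was used for direct comparison: IFNγ 100 ng/ml plus TNFα 10 ng/ml, called the combination here, and the same supernatant diluted 1/200. All cells were grown in IMDM with fetal calf serum, antibiotics and GlutaMax and carried the same reporter. The series title names the spread of cytokines from CD8+ T cells through tumor tissue. The cytokines in the undiluted supernatant and the way its T cells were stimulated are not stated in the labels.

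Each treatment and duration had 1 library, and the libraries are not stated to come from separate cultures. The spread behind every p-value is therefore the scatter of libraries around fitted time courses, which may be technical. Library totals were 9734915 to 15127743 estimated counts under supernatant 1/2 and 10613629 to 13193459 in unstimulated cells. Mitochondrially encoded transcripts took 7.11% to 8.26% of counts under supernatant 1/2 and 8.21% to 9.81% in unstimulated cells. The library most correlated with each supernatant 1/2 library was the combination library of the same duration.

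Epithelial markers were high. KRT8, a keratin of simple epithelia, was at 1450, 1190, 1070 and 712 TPM under supernatant 1/2 at 2, 6, 12 and 24 h, against 1470, 1400, 1320 and 1360 TPM in unstimulated cells, and EPCAM at 75.6, 66.2, 57.0 and 37.3 TPM against 82.7, 82.3, 80.5 and 83.4 TPM. The ovarian lineage factor PAX8 was at 6.52 to 14 TPM under supernatant 1/2 and 5.24 to 8.73 TPM in unstimulated cells, while WT1 and MUC16 were under 1 TPM in all 8 libraries. Of 10 T cell markers, 6 (CD3E, CD3G, CD8B, TRAC, PTPRC and CD247) had 0 counts in all 8, and the list summed to 0.619 to 2.28 TPM under supernatant 1/2 and 1.46 to 1.78 TPM in unstimulated cells, nearly all of it LCK. GZMB, PRF1, IL2 and 5 more of 15 T-cell effector transcripts were also at 0 in all 8. Among 6 myeloid markers FCGR3A and TYROBP were at 0, and the summed level was 2.77 to 6.54 TPM under supernatant 1/2 and 2.91 to 5.08 TPM in unstimulated cells. Of the 3 that could be tested ITGAM rose by 3.67 ± 0.37 and CD14 by 0.94 ± 0.32, and LYZ fell by 1.07 ± 0.35. The call for CD14 was lost without supernatant 1/2 at 12 h (0.64, adjusted p = 0.122) or unstimulated cells at 2 h (0.72, 0.189) or 24 h (0.68, 0.133), and that for LYZ without supernatant 1/2 at 24 h (-1.01, 0.0561) or 2 h (-0.99, 0.0972). B cell, fibroblast and endothelial marker lists each summed to at most 3.30 TPM under supernatant 1/2 and 5.46 TPM in unstimulated cells.

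IFNγ binds IFNGR1 and IFNGR2, and the kinases JAK1 and JAK2 then phosphorylate STAT factors, whose dimers bind GAS elements and switch on factors such as IRF1 and CIITA. TNFα and IL1 release NF-κB from its inhibitors, and NF-κB drives chemokines, cytokines, survival genes and its own inhibitors. Many chemokine and antigen-presentation genes carry sites for both pathways in their promoters. In carcinomas, T-cell IFNγ is known for raising antigen presentation, CXCR3 ligands, PD-L1 and IDO1.

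Promoters of 6 genes that carry the results below are printed, 250 bases each before the RefSeq start (GRCh38.p14), 5′ to 3′ on the gene's own strand. CXCL10, IRF1 and TAP1 rose against unstimulated cells. CISH, ASNS and CHAC1 were higher than under the combination. Capitals mark matches, on either strand, to GAAANNGAAA (ISRE, the element of IRF factors), TTCNNNGAA (GAS, the element of STAT dimers), GGGNNNTTCC (κB, the element of NF-κB) or TGATGNAA (CARE, the element of ATF4 with C/EBP factors).
CXCL10, chr4:76023498-76023747, minus strand, an ISRE and then a κB match: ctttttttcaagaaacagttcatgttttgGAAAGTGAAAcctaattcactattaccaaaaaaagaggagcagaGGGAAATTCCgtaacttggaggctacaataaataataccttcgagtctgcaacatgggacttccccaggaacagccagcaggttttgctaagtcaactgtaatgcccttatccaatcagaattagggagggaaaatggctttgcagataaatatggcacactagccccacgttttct
IRF1, chr5:132490774-132491023, minus strand, a GAS match: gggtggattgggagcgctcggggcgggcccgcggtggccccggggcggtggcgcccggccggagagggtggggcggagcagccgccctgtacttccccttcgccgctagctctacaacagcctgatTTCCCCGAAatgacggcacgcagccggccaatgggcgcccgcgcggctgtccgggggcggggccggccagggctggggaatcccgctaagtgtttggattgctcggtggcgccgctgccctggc
TAP1, chr6:32853705-32853954, minus strand, a pair of overlapping ISRE matches and then a κB match: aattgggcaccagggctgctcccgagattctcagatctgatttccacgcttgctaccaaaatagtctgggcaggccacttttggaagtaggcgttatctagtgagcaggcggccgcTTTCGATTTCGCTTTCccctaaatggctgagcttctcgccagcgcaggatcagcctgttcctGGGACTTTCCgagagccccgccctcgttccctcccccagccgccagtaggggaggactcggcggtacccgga
CISH, chr3:50611775-50612024, minus strand, 4 GAS matches: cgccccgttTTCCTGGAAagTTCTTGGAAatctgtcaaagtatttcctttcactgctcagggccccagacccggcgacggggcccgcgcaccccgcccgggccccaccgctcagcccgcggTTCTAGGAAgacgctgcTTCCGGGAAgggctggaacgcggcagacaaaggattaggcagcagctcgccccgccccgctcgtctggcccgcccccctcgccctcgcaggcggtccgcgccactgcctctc
ASNS, chr7:97872409-97872658, minus strand, a CARE match: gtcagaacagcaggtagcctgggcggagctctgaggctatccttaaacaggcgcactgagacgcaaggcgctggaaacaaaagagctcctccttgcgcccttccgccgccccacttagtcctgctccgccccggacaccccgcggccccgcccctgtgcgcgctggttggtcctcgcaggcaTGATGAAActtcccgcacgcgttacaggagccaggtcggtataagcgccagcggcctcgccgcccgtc
CHAC1, chr15:40953221-40953470, plus strand, a CARE match on the other strand: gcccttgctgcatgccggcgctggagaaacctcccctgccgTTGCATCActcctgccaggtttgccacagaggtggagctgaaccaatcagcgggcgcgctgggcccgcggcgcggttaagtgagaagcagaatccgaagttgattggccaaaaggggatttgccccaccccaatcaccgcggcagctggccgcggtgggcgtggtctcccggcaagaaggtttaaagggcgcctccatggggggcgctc
The same windows of 35116 RefSeq promoters held an ISRE match in 3.02%, a GAS match in 6.57%, a κB match in 5.67% and a CARE match in 3.14%. A match describes the letters and does not show that a factor binds.

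CXCR3 ligands, neutrophil chemokines, guanylate-binding proteins and colony-stimulating factors had the largest median rises under supernatant 1/2. Replication and mitosis genes and epithelial keratins fell by small median amounts in the fit over all durations. Of 14469 genes tested with edgeR's quasi-likelihood test, 22.6% rose and 20.8% fell against unstimulated cells (Benjamini-Hochberg adjusted p under 0.05). Most of these changes were small. A test against a 2-fold change called 3.86% of genes, 559 in number, as higher and 0.491%, 71 in number, as lower, and 589 of these 630 had the same sign of change at all 4 durations. In what follows a level is TPM of single libraries at 2, 6, 12 and 24 h, in that order, and a change is a fitted log2 fold change ± SE, supernatant 1/2 over unstimulated (n = 4 libraries each), at the mean log2 duration of 7.67 h. TPM also depends on which isoforms the authors' quantification assigned, and tests used counts. In bulk RNA, fewer cells that respond and less RNA per cell cannot be told apart.

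The CXCR3 ligands, which draw activated T cells, rose most of all lists. CXCL9 (ENSG00000138755, chr4:76001275-76007488, GRCh38) was at 5.26, 74.1, 372 and 1370 TPM under supernatant 1/2, against 0, 0, 0.0379 and 0.0779 TPM in unstimulated cells. It had 45654 counts in all under supernatant 1/2 and 3 in unstimulated cells, a ratio of 16500 (95% exact interval 5630 to 79800, counting error only). Its neighbor CXCL10 (ENSG00000169245, chr4:76021117-76023497) was at 134, 1680, 3730 and 4270 TPM under supernatant 1/2 and at 0.252, 0.170, 0.917 and 0.628 TPM in unstimulated cells. CXCL10 rose by 11.92 ± 0.34 (adjusted p = 5.89e-17). CXCL11, the next gene on the same arm, was at 12.6, 279, 1040 and 1280 TPM under supernatant 1/2, against 0.0582 to 0.286 TPM in unstimulated cells, a rise of 11.05 ± 0.35. No level of either group reached into the range of the other for any of these genes, and in each the 2 h library was the lowest of the supernatant 1/2 series. CXCL10 and CXCL11 overlap ART3 on the opposite strand and CXCL9 overlaps an antisense gene. The strand that was counted is not given, so reads of such pairs cannot be told apart. The same holds for IL6, CISH, RSAD2 and GBP5, described below, which each overlap a gene on the opposite strand.

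**Figure D1:**
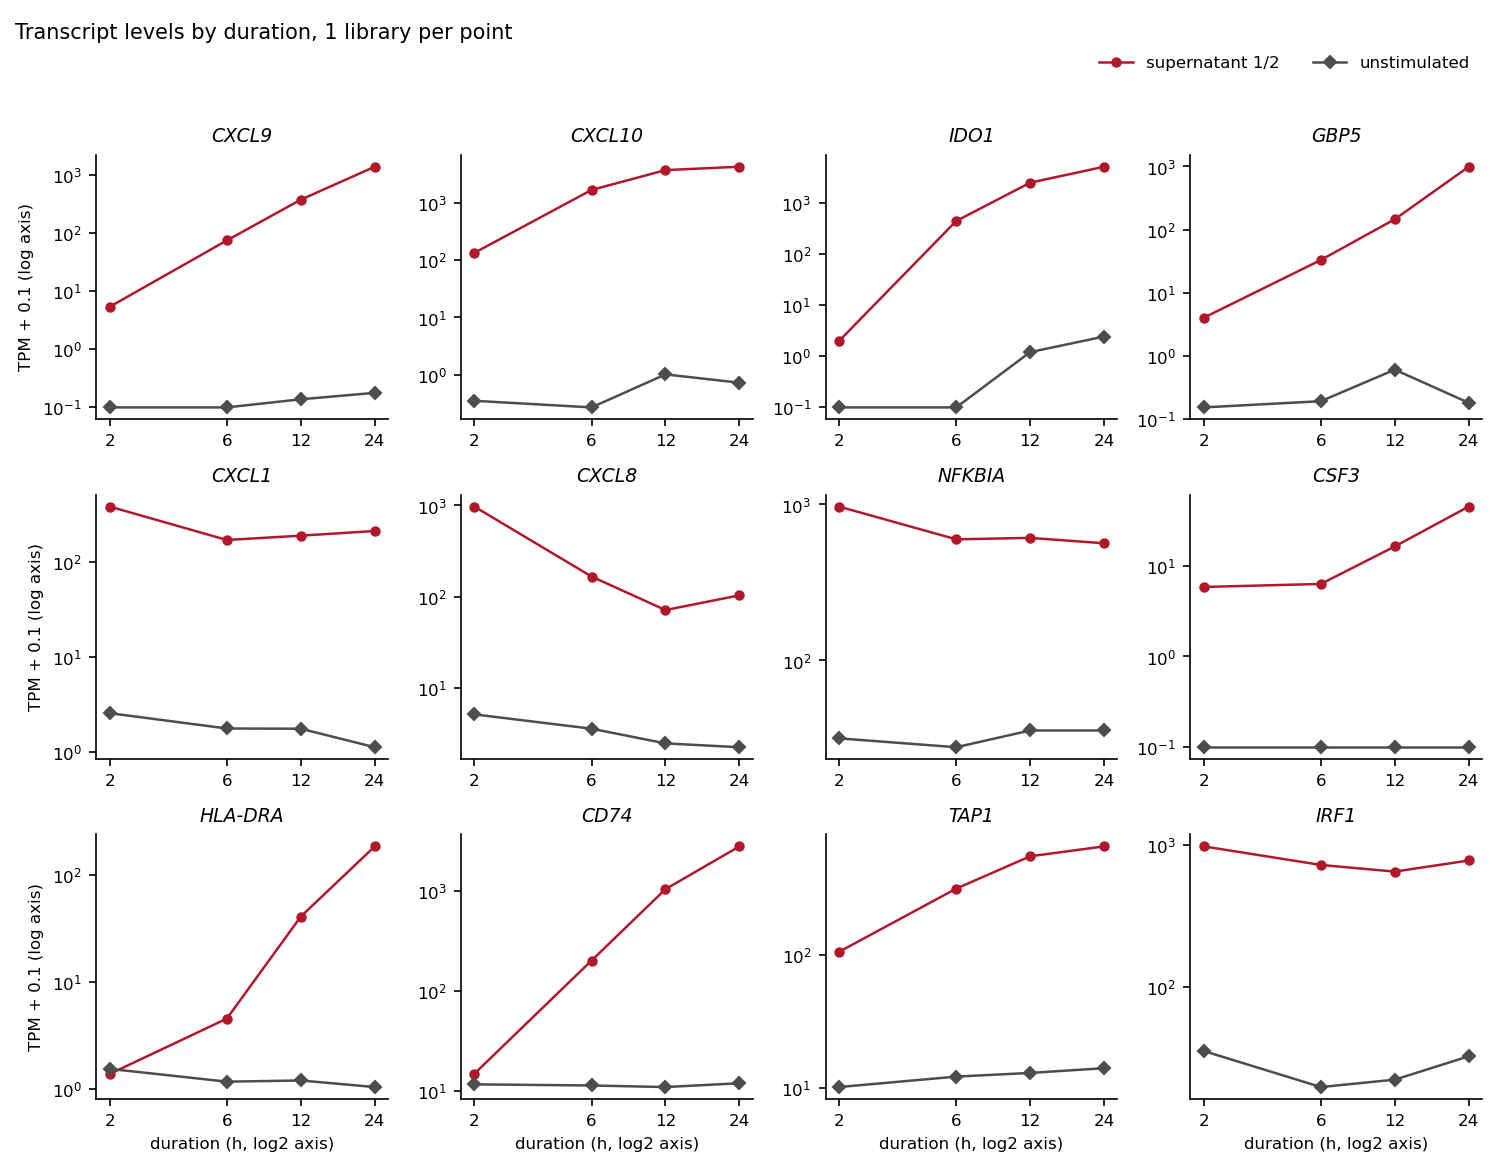
Levels of 12 genes by duration (TPM + 0.1 on a log axis, hours on a log2 axis), 1 library per point, with supernatant 1/2 as red circles and unstimulated cells as gray diamonds. CXCL9, IDO1, GBP5, HLA-DRA and CD74 climb with duration under supernatant 1/2, CXCL1, CXCL8 and NFKBIA are at their highest at 2 h, and HLA-DRA at 2 h is at 1.28 TPM under supernatant 1/2 against 1.44 TPM in unstimulated cells.

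Chemokines that bind CXCR2 and draw neutrophils followed another course. CXCL1 (ENSG00000163739, chr4:73869393-73871242) was at 387, 172, 191 and 214 TPM under supernatant 1/2, against 2.48, 1.68, 1.67 and 1.03 TPM in unstimulated cells, and rose by 7.24 ± 0.46 (adjusted p = 3.35e-11). CXCL8 was at 973, 167, 71.7 and 104 TPM under supernatant 1/2, against 5.09, 3.52, 2.40 and 2.17 TPM, and rose by 5.92 ± 0.46. Both were highest at 2 h, where the CXCR3 ligands were lowest. CXCL2 rose by 6.87 ± 0.28, CXCL3 by 6.84 ± 0.39, and CXCL5 had 593 counts against 2, a ratio of 321 (95% exact interval 88.4 to 2650). All 5 tested genes of 6 on this list rose. The sixth, CXCL6, was too low to test, at 0.619 to 1.03 TPM under supernatant 1/2 and 0.0537 to 0.386 TPM in unstimulated cells.

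Of CC and other chemokines, 7 of 8 tested rose and CCL28 fell by 1.05 ± 0.32, a call lost without the 24 h (-0.76, adjusted p = 0.114) or the 2 h (-0.65, 0.231) library of supernatant 1/2. CCL20, the ligand of CCR6, was at 169, 26.1, 11.3 and 21 TPM under supernatant 1/2 and at most 0.926 TPM in unstimulated cells, a rise of 6.14 ± 0.50. CCL2, which draws monocytes, was at 77.6, 87.7, 55.8 and 17.1 TPM under supernatant 1/2 and 0.388 to 1.59 TPM in unstimulated cells, a rise of 5.93 ± 0.53. CCL5, which draws T cells, was at 1.85, 9.33, 25.9 and 96.6 TPM under supernatant 1/2 and 0.566 to 1.74 TPM in unstimulated cells, a rise of 3.66 ± 0.28. CCL20 was thus highest at 2 h, CCL2 at 6 h and CCL5 at 24 h.

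Growth factors of myeloid cells and inflammatory cytokines rose too. CSF2, which encodes GM-CSF, was at 262, 84.3, 78.7 and 131 TPM under supernatant 1/2, against 2.32, 4.70, 1.05 and 0.542 TPM, a rise of 6.03 ± 0.60. CSF3, which encodes G-CSF and drives neutrophil production, was at 5.73, 6.19, 16.2 and 44.7 TPM under supernatant 1/2 and had no count in any unstimulated library. Its 924 counts make it at least 333-fold higher, with 3 counts taken as the floor over the group. CSF1 rose by 3.54 ± 0.20, which completes that list of 3. IL6, an inflammatory cytokine that signals through STAT3, was at 35.3, 15.4, 16.3 and 62.0 TPM under supernatant 1/2 and 0 to 0.730 TPM in unstimulated cells, a rise of 7.33 ± 0.52. IL1A and IL1B rose by 4.59 ± 0.34 and 4.86 ± 0.29. TNF was at 10.1, 5.02, 2.57 and 3.03 TPM under supernatant 1/2 and 0.0546 to 0.136 TPM in unstimulated cells, a rise of 5.68 ± 0.53. All 7 tested genes of the lymphocyte cytokine list rose, among them IL32 by 6.13 ± 0.17, the IL15 receptor chain IL15RA by 2.45 ± 0.15 and IL7, a survival factor of T cells, by 2.31 ± 0.26. IL18 fell by 0.62 ± 0.13, the only fall among 7 tested IL1-family genes.

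Components of IFNγ signaling rose at each step. IFNGR2 rose by 1.62 ± 0.16, IFNGR1 by 0.78 ± 0.09, JAK1 by 0.56 ± 0.06 and JAK2 by 1.89 ± 0.23. Of the 14 genes of receptors, JAKs and STATs, 12 rose, none fell, and STAT4 and STAT5B did not pass the test (0.02 ± 0.29 and -0.07 ± 0.06). STAT5A, at 8.50 to 10.8 TPM under supernatant 1/2 and 0.281 to 1.28 TPM in unstimulated cells, rose by 3.63 ± 0.33. The median change of this list was 1.03, beside -0.02 over all tested genes.

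IRF factors and their partners rose in 10 of 11 tested cases, with a median of 2.21. IRF1, a primary target of IFNγ signaling, was at 976, 722, 648 and 776 TPM under supernatant 1/2, against 35.1, 19.5, 22 and 32.2 TPM in unstimulated cells, and rose by 5.00 ± 0.35 (adjusted p = 1.63e-10). It was at its highest at 2 h under supernatant 1/2. IRF9, the DNA-binding subunit of ISGF3, rose by 2.21 ± 0.09, IRF8 by 4.50 ± 0.29, and the ETS factor ETV7, which overlaps an antisense gene, by 7.83 ± 0.30. Feedback inhibitors of JAK-STAT signaling moved apart. SOCS1 rose by 4.96 ± 0.34, SOCS3 by 2.98 ± 0.17 and the ubiquitin-like protease USP18, which dampens type I receptor signaling, by 2.24 ± 0.19, while SOCS2 (-0.55 ± 0.41) and PIAS1 (-0.09 ± 0.06) did not pass. In all, 6 of the 13 rose and SOCS6 and SOCS7 fell, and 4 fell when the 24 h library of supernatant 1/2 was left out.

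CISH, a SOCS-family target of STAT5 and STAT6 whose promoter above holds 4 GAS matches, was at 3.78, 3.76, 5.36 and 4.26 TPM under supernatant 1/2, against 0.261, 0.621, 0.401 and 0.386 TPM in unstimulated cells. It rose by 3.45 ± 0.30 (adjusted p = 1.78e-10). Its level changed little between 2 and 24 h. Of 15 tested receptors for T-cell interleukins, 13 rose, IL20RA fell and IL2RB did not pass. The fall of IL20RA (-1.10 ± 0.34) was lost without the 2 h library of supernatant 1/2 (-0.89, adjusted p = 0.125) or the 2 h (-0.95, 0.0996) or 24 h (-0.99, 0.0560) unstimulated library. IL7R rose by 1.74 ± 0.15, IL4R by 1.75 ± 0.10 and the common γ chain IL2RG by 3.75 ± 0.45, the last at 1.19, 1.14, 4.67 and 22.7 TPM under supernatant 1/2 and 0.132 to 0.671 TPM in unstimulated cells. Only 3 of 12 listed STAT6 targets of IL4 and IL13 were high enough to test, of which CISH and the transglutaminase TGM2 (1.25 ± 0.08) rose. CCL26, another of them, was at 0.571 to 0.753 TPM under supernatant 1/2 and 0 to 0.642 TPM in unstimulated cells and was not tested.

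All 16 genes of the NF-κB inhibitor and feedback list rose, with a median of 2.38, and so did all 5 subunits. NFKBIA, the inhibitor IκBα, was at 970, 598, 611 and 564 TPM under supernatant 1/2, against 31.6, 27.7, 35.5 and 35.5 TPM in unstimulated cells, and rose by 4.27 ± 0.18 (adjusted p = 4.77e-14). TNFAIP3, which encodes the ubiquitin editor A20, was at 240, 131, 101 and 152 TPM under supernatant 1/2, against 4.91 to 12.9 TPM, and rose by 4.32 ± 0.34. Neither overlapped between groups at any duration. Among subunits NFKB2 rose by 2.84 ± 0.19, RELB by 2.56 ± 0.21 and NFKB1 by 1.41 ± 0.11, with RELA (0.93 ± 0.07) and REL (0.83 ± 0.12) behind. Of 10 kinase genes of the pathway 9 rose, by a median of 0.38 over the list. AP-1, EGR and KLF factors rose in 18 of 23 tested cases, JUNB by 3.54 ± 0.20 and ATF3 by 3.64 ± 0.34, while FOS did not pass at -0.65 ± 0.26.

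Transcripts of class I antigen presentation rose as a whole. All 8 class I chain genes and all 13 genes of the immunoproteasome and peptide loading rose, with medians of 1.88 and 1.66. TAP1, which carries peptides into the endoplasmic reticulum and whose promoter is printed above, was at 105, 314, 550 and 653 TPM under supernatant 1/2, against 10.0, 12.0, 12.8 and 13.9 TPM in unstimulated cells, and rose by 4.81 ± 0.17 (adjusted p = 1.87e-15). HLA-B was at 391, 699, 1500 and 3250 TPM under supernatant 1/2, against 255, 217, 200 and 195 TPM, and rose by 2.32 ± 0.15. B2M, the light chain, was at 3420, 4640, 7250 and 13300 TPM under supernatant 1/2, against 3020, 2750, 2850 and 3330 TPM, and rose by 1.24 ± 0.07. At 2 h TAP1 was thus already far above unstimulated cells, whereas B2M was close to them. The immunoproteasome subunit PSMB9 rose by 3.37 ± 0.14 and PSMB8 by 2.29 ± 0.12. Constitutive subunits changed less, 13 of 14 rising with a median of 0.45 and none past the test against 2-fold, and PSMB5, which PSMB8 replaces, did not pass (0.06 ± 0.04). With only the 8 libraries in the fit 0 constitutive subunits rose, beside 3 class I chain and 7 immunoproteasome and peptide loading genes. With 2 h and 6 h alone 1, 5 and 7 of these lists rose. HLA genes share near-identical sequence, so the split of reads among them is uncertain.

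All 16 class II genes rose, 15 of them past 2-fold, with a median of 3.75, or 3.84 with the 2 lowest genes at their bound or count ratio. CIITA, their master regulator, was at 1.98, 52.4, 45.9 and 60.9 TPM under supernatant 1/2 and 0.132 to 0.424 TPM in unstimulated cells, and rose by 5.69 ± 0.45. HLA-DRA (chr6:32439842-32445046) was at 1.28, 4.44, 40.6 and 184 TPM under supernatant 1/2, against 1.44, 1.07, 1.10 and 0.942 TPM in unstimulated cells. The invariant chain CD74 (chr5:150401637-150412929) was at 14.7, 202, 1050 and 2820 TPM under supernatant 1/2, against 11.5, 11.2, 10.8 and 11.8 TPM. HLA-DRA rose by 3.61 ± 0.26 and CD74 by 4.87 ± 0.22, and each was close to unstimulated cells at 2 h. CTSS, the protease that trims the invariant chain, rose by 6.18 ± 0.22. With only the 8 libraries in the fit, or with 2 h and 6 h alone, 3 of the 16 class II genes rose.

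Defense genes that act inside the cell rose. The 7 guanylate-binding proteins, GTPases that act on intracellular bacteria and vacuoles, all rose with a median of 6.20. GBP1 was at 84.2, 353, 579 and 800 TPM under supernatant 1/2, against 1.62, 3.38, 1.94 and 3.46 TPM in unstimulated cells, a rise of 7.01 ± 0.32. GBP5 was at 3.91, 32.9, 146 and 991 TPM under supernatant 1/2, against 0.0525 to 0.504 TPM, a rise of 8.28 ± 0.45. GBP7 had 429 counts under supernatant 1/2 and 2 in unstimulated cells, a ratio of 232 (95% exact interval 63.8 to 1920). UBD, a ubiquitin-like modifier, was at 98.4, 670, 1410 and 1990 TPM under supernatant 1/2 and 0 to 4.42 TPM in unstimulated cells, a rise of 11.63 ± 0.46. OR2I1P, which overlaps UBD on the opposite strand, was called with it (9.99 ± 0.43) and cannot be told apart from it. LINC02605, a noncoding gene also among the 15 largest rises, had 925 counts under supernatant 1/2 and 3 in unstimulated cells, a ratio of 333 (95% exact interval 114 to 1620).

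Of 25 OAS, MX and IFIT antiviral genes 22 rose and 1 fell, with a median of 1.57. With only the 8 libraries in the fit 7 rose, and with 2 h and 6 h alone 5. MX1, a GTPase against RNA viruses, was at 6.03, 29.6, 70.7 and 141 TPM under supernatant 1/2, against 5.08, 3.83, 5.72 and 6.30 TPM in unstimulated cells, and rose by 2.81 ± 0.19. OAS2 was at 0.635, 11.3, 46.2 and 79.5 TPM under supernatant 1/2, against 0.741, 1.56, 1.17 and 1.96 TPM, and rose by 3.62 ± 0.33. Both stood within or beside the unstimulated range at 2 h only. IFIT1 did not pass (0.11 ± 0.15), at 12.6 to 36.7 TPM under supernatant 1/2 and 14.7 to 40.5 TPM in unstimulated cells. All 14 tested nucleic acid sensors rose, the RNA helicases IFIH1 and RIGI by 2.79 ± 0.18 and 2.18 ± 0.13, and all 5 APOL genes rose, APOL3 by 4.06 ± 0.33.

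Complement and acute-phase genes rose in 11 of 13 and 10 of 11 tested cases. C3, the central component, was at 60.3, 160, 229 and 302 TPM under supernatant 1/2, against 10.1, 7.80, 5.96 and 7.02 TPM in unstimulated cells, and rose by 4.12 ± 0.26. CFB rose by 4.04 ± 0.12 and the classical-pathway proteases C1R and C1S by 5.04 ± 0.17 and 5.24 ± 0.25. SAA1, an acute-phase apolipoprotein, rose by 3.51 ± 0.19. SERPINA3 was at 26.3, 19.3, 16.9 and 6.04 TPM under supernatant 1/2 and 0.580 to 1.55 TPM in unstimulated cells, a rise of 4.11 ± 0.38, and alone of these was highest at 2 h.

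Among inhibitory ligands 9 of 11 tested genes rose and 1 fell. CD274, which encodes PD-L1, was at 47.1, 71.1, 88.6 and 133 TPM under supernatant 1/2, against 1.75, 1.77, 2.86 and 0.772 TPM in unstimulated cells, and rose by 5.81 ± 0.27 (adjusted p = 1.09e-13). PDCD1LG2, which encodes PD-L2, had 881 counts under supernatant 1/2 and 2 in unstimulated cells, a ratio of 476 (95% exact interval 131 to 3940). CD47 rose by 2.10 ± 0.11. IDO1, which breaks down tryptophan, was at 1.88, 436, 2440 and 5000 TPM under supernatant 1/2, against 0, 0, 1.10 and 2.32 TPM, and rose by 11.63 ± 0.31. WARS1, the tryptophan tRNA synthetase, was at 222, 1510, 3150 and 5310 TPM under supernatant 1/2, against 83.6 to 94.9 TPM, and rose by 4.06 ± 0.20. At 24 h IDO1 and WARS1 thus stood above CXCL10 in TPM.

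Most of the death and survival genes tested rose. Of 9 tested leukocyte adhesion genes 5 rose and 1 fell, and the fall was not called without the 2 h or the 24 h library of either group. ICAM1, the ligand of LFA-1, was at 571, 1130, 780 and 941 TPM under supernatant 1/2, against 13.8, 12.8, 17 and 24.6 TPM in unstimulated cells, and rose by 5.75 ± 0.32. Of 25 tested death receptor, caspase and effector genes 20 rose and none fell. FAS rose by 3.01 ± 0.20, CASP1 by 4.22 ± 0.34, CASP8 by 1.16 ± 0.11 and the pore former GSDMD by 1.57 ± 0.12. Of 11 tested survival genes 8 rose and 1 fell, with BCL2A1 at 7.07 ± 0.52, BIRC3 at 4.36 ± 0.23 and CFLAR, the caspase-8 inhibitor, at 1.17 ± 0.06. SOD2, the mitochondrial superoxide dismutase, was at 508, 1400, 1850 and 2400 TPM under supernatant 1/2, against 45.6 to 69.0 TPM, and rose by 4.60 ± 0.25. Matrix proteases and inhibitors rose in 12 of 14 tested cases and laminin-332 and integrin genes in 10 of 12, among the last LAMB3 by 2.76 ± 0.29.

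**Figure D2:**
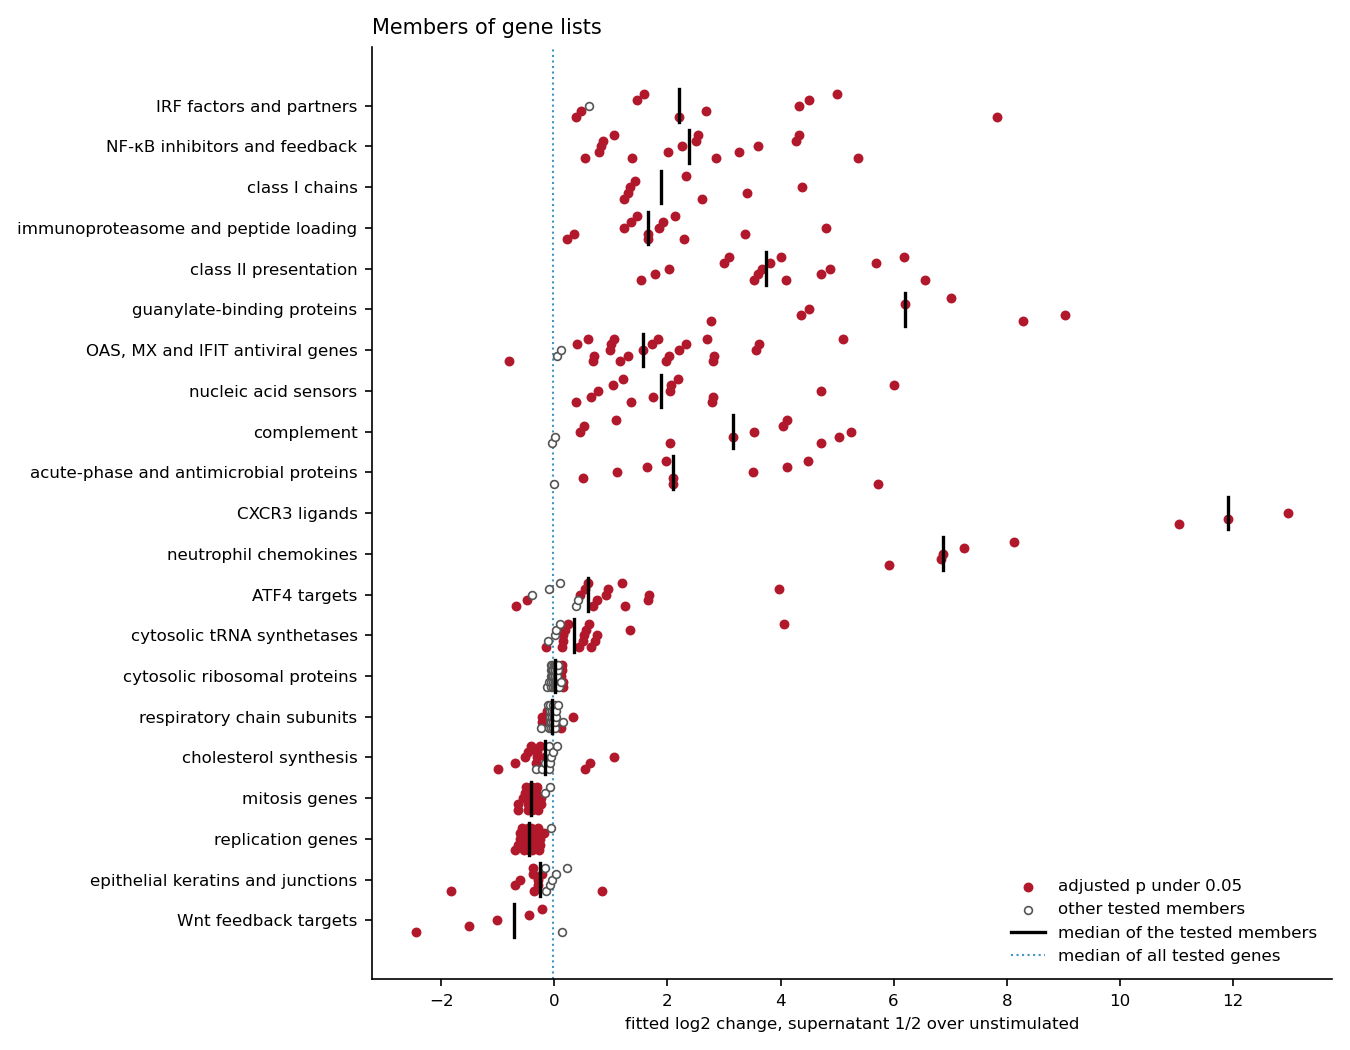
Fitted log2 change of the tested members of 21 gene lists, supernatant 1/2 over unstimulated, with 1 dot per gene, filled where adjusted p is under 0.05, a black bar at each list's median and a dotted line at the median of all tested genes (-0.02). CXCR3 ligands lie farthest to the right, ribosomal protein and respiratory chain genes sit around the dotted line, and replication, mitosis and keratin genes lie slightly to its left; values of genes with at most 3 unstimulated counts depend on the prior count.

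Falls past 2-fold were fewer, and most of the largest were of genes at low level. PADI1, a peptidylarginine deiminase, was at 1.25, 0.167, 0.0768 and 0.0316 TPM under supernatant 1/2, against 1.73, 3.16, 1.89 and 1.61 TPM in unstimulated cells, and fell by 3.60 ± 0.27 on the log2 scale (adjusted p = 1.61e-11). SGK2, a kinase related to SGK1, was at 14.3, 6.88, 2.17 and 0.778 TPM under supernatant 1/2, against 18.1, 28.4, 29.8 and 44 TPM, and fell by 2.71 ± 0.22. CYP1A1, a target of the aryl hydrocarbon receptor, was at 2.91, 1.39, 0.0962 and 0.416 TPM under supernatant 1/2, against 13.4, 5.29, 2.17 and 0.956 TPM, and fell by 3.12 ± 0.29. PADI1 and SGK2 parted further with duration, whereas CYP1A1 was lowest at the later durations in both groups. METTL7A was at 0.336, 0.247, 0.132 and 0.0724 TPM under supernatant 1/2, against 0.504, 1.18, 1.6 and 9.38 TPM in unstimulated cells, and fell by 3.14 ± 0.39. The alcohol dehydrogenase ADH1C, which overlaps ADH1B on the same strand, was at 1.58, 0.966, 0.510 and 0.229 TPM under supernatant 1/2, against 2.46, 1.80, 9.48 and 29.7 TPM in unstimulated cells, and fell by 2.98 ± 0.50. Both climbed with duration in unstimulated cells and not under supernatant 1/2. Others of the 15 largest falls were THSD7A, ZNF488, SLC16A14, AXIN2, VIPR1, APLN, GPRIN3, CAVIN2 and CDK15, at -2.54 to -2.26, and an unnamed gene, ENSG00000277067, which had no count at 2, 6 and 12 h under supernatant 1/2. That gene passed at an adjusted p of 0.046 and failed in each fit that left out 1 of the 8 libraries (0.0516 to 0.117).

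Of 6 tested Wnt feedback targets 5 fell, with a median of -0.72, and 3 fell when any of 6 of the 8 libraries was left out. AXIN2 was at 0.914, 0.294, 0.344 and 0.239 TPM under supernatant 1/2, against 0.982, 1.09, 2.82 and 8.28 TPM in unstimulated cells, and fell by 2.45 ± 0.31. Among epithelial keratins and junction genes 9 of 16 fell and CLDN1 rose. KRT80 was at 13.4, 5.66, 2.66 and 1.63 TPM under supernatant 1/2, against 18.3, 15.5, 17.3 and 15.3 TPM, and fell by 1.83 ± 0.11. KRT19 fell by 0.70 ± 0.07, at 216, 144, 126 and 139 TPM under supernatant 1/2 and 262 to 281 TPM in unstimulated cells. KRT8 fell by 0.22 ± 0.08 and did not pass without the 24 h (-0.07, adjusted p = 0.452) or the 2 h (-0.04, 0.747) library of supernatant 1/2 or the 2 h (-0.20, 0.145), 6 h (-0.22, 0.0525) or 24 h (-0.17, 0.147) unstimulated library. EPCAM fell by 0.38 ± 0.08, or by 0.23 without either the 24 h or the 2 h library of supernatant 1/2.

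Proliferation genes fell in nearly every case, by small amounts in the fit over all durations. Of 25 replication genes 24 fell, with a median of -0.44 on the log2 scale, and of 25 mitosis genes 23 fell, with a median of -0.41. None passed the test against 2-fold. PCNA, the sliding clamp of replication, was at 205, 143, 113 and 92.0 TPM under supernatant 1/2, against 217, 190, 203 and 163 TPM in unstimulated cells, and fell by 0.44 ± 0.08 (adjusted p = 8.06e-05). MKI67 was at 46.5, 43.9, 36.9 and 25.4 TPM under supernatant 1/2, against 47.8, 54.7, 52.2 and 55.4 TPM, and fell by 0.41 ± 0.07. In both genes the 2 h libraries of the groups were close and the 24 h library of supernatant 1/2 was the lowest of its series. CCNE2, the late G1 cyclin E2, fell by 0.96 ± 0.12. CDKN1A, the CDK inhibitor p21, was at 33.2, 49.7, 48.4 and 64.8 TPM under supernatant 1/2, against 5.14 to 7.47 TPM, and rose by 3.07 ± 0.14. Without the 24 h library of supernatant 1/2, 15 mitosis genes fell, and without its 2 h library 11 did. With only the 8 libraries in the fit and no slope terms, 5 replication and 1 mitosis genes fell, and with 2 h and 6 h alone 2 and 9. At 24 h the median log2 CPM difference was -0.69 for replication and -1.05 for mitosis genes.

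Ribosomal protein and respiratory chain genes changed little. Of 42 cytosolic ribosomal protein genes 5 rose and none fell, with a median of 0.02, and between 2 and 10 rose as single libraries were left out. Of 28 respiratory chain subunits 2 rose and 3 fell, with a median of -0.04. With 1 library left out between 1 and 3 of these subunits rose and between 0 (without supernatant 1/2 at 2 h) and 6 (without supernatant 1/2 at 12 h) fell. Cholesterol synthesis genes fell in 10 of 23 cases and rose in 3, with a median of -0.17. Their median log2 CPM difference at 24 h was -0.68, beside -0.03 over all tested genes. Without the 24 h or the 2 h library of supernatant 1/2, 6 or 5 of them fell. ER chaperones rose in 11 of 16 cases with a median of 0.20, HERPUD1 by 1.04 ± 0.18, and 6 rose without the 12 h library.

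The effect of the supernatant differed between durations for many genes. A test of the slope, the change of the effect per doubling of duration, called 8.34% of genes with a rising and 7.91% with a falling effect. Of the 3267 genes that rose, 1021 had a rising slope and 41 a falling one. Rising slopes were called in 12 of 16 class II genes, 11 of 13 immunoproteasome and peptide loading genes and 19 of 25 antiviral genes, and falling ones in none. The median log2 CPM difference (prior count 2, on which genes near 0 depend) of class II was 0.31, 2.14, 4.52 and 6.84 at 2, 6, 12 and 24 h, and that of antiviral genes 0.26, 1.24, 1.90 and 2.16. NF-κB feedback genes (2.05, 2.50, 2.07 and 2.12) and neutrophil chemokines (7.17, 5.97, 6.59 and 6.96) stood near their later medians at 2 h. None of the 5 neutrophil chemokines had a called slope, and of the 16 NF-κB feedback genes 3 had rising and 2 had falling ones. None of the 3 CXCR3 ligands had a called slope either, with median differences of 6.24, 10.65, 11.86 and 12.41. The slope test therefore did not set these chemokine groups apart. Falling slopes were called in 15 of 25 replication and 15 of 25 mitosis genes, and rising ones in none.

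The steepest rising slopes were those of class II genes. HLA-DPA1 had a slope of 3.13 ± 0.31, HLA-DRA 2.48 ± 0.23, HLA-DRB1 2.48 ± 0.29 and CD74 2.14 ± 0.18 per doubling. SERPING1, the C1 inhibitor, followed at 2.08 ± 0.35, the phospholipase PLA1A at 2.05 ± 0.42, CTSS at 1.98 ± 0.30 and TNFSF15 at 1.94 ± 0.27. TNFSF15, a TNF-family ligand, was at 0.287, 0.938, 1.88 and 13.2 TPM under supernatant 1/2 and 0.0452 to 0.169 TPM in unstimulated cells. The steepest falling slopes were those of PADI1 (-1.62 ± 0.20), SFMBT2 (-1.58 ± 0.35), ADH1C (-1.5 ± 0.37), METTL7A (-1.48 ± 0.29), ANO3 (-1.37 ± 0.26), ELF3 (-1.35 ± 0.24), THSD7A (-1.34 ± 0.28) and SGK2 (-1.34 ± 0.16). ELF3, an epithelial ETS factor, crossed over, at 144, 30.7, 31 and 20.4 TPM under supernatant 1/2 and 19.4, 16.8, 63.7 and 98.9 TPM in unstimulated cells, so that its mean effect did not pass (0.17 ± 0.31). Slope calls rested heavily on single libraries, most of all that of unstimulated cells at 2 h. Without the 24 h library of supernatant 1/2, 1695 slopes were called, 1180 of them shared with the fit of all 44 libraries. Without its 2 h library 2343 were called, 1358 of them shared. Without the unstimulated 2 h library 460 genes had a called slope in place of 2351 (1509 without the unstimulated 24 h library), and HLA-DPA1 (1.73, adjusted p = 0.191), PLA1A (1.71, 0.221), CTSS (1.14, 0.165), SFMBT2 (-1.34, 0.129), ADH1C (-1.77, 0.0682), ELF3 (-0.94, 0.172) and THSD7A (-1.38, 0.0590) lost theirs. ADH1C (-1.06, 0.151) and METTL7A (-1.01, 0.0760) lost theirs without the 24 h library of supernatant 1/2, and PADI1 (-0.90, 0.346) without its 2 h library.

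**Figure D3:**
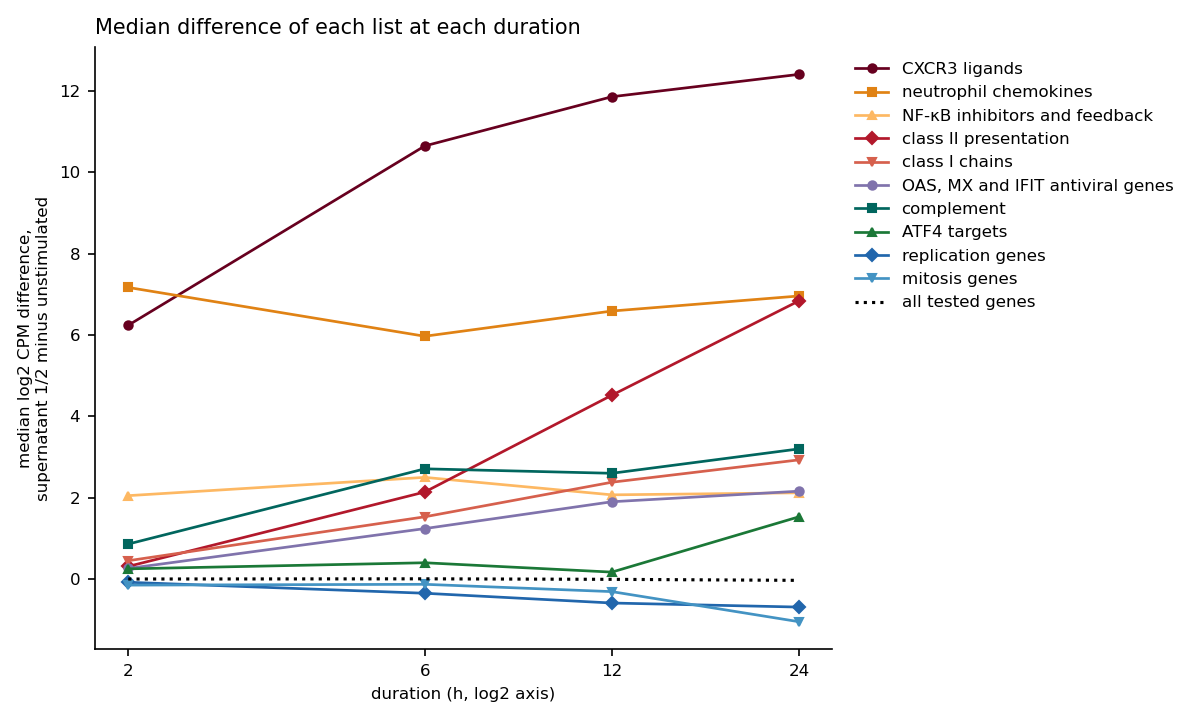
Median log2 CPM difference of supernatant 1/2 minus unstimulated at each duration (hours on a log2 axis), for the tested members of 10 lists and for all tested genes as a dotted line. Class II genes climb from 0.31 at 2 h to 6.84 at 24 h, neutrophil chemokines run between 5.97 and 7.17 and NF-κB feedback genes between 2.05 and 2.50, and mitosis genes reach -1.05 at 24 h.

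Set directly against the combination, supernatant 1/2 gave lower CXCR3 ligands and antiviral genes and higher CISH, CSF3, LCN2 and amino-acid stress genes. This contrast asks how the supernatant differs from a defined pair of cytokines. No treatment was a conditioned medium made without T cells. Cytokines of the supernatant therefore cannot be told apart from other differences of its medium. Of 14469 genes 4.51% were higher and 3.95% lower under supernatant 1/2, 1223 in all, and between 667 and 1364 as single libraries were left out. CXCL11 was at 12.6, 279, 1040 and 1280 TPM under supernatant 1/2 and 37.5, 641, 2070 and 3080 TPM under the combination, a difference of -1.28 ± 0.16 (adjusted p = 3.02e-05). CXCL9, at 16.8, 152, 617 and 2100 TPM under the combination, was lower by 1.06 ± 0.10 under the supernatant, and CXCL10 by 0.88 ± 0.17. These 2 calls were lost with DESeq2 (adjusted p = 0.0764 and 0.291) and, together with that of CXCL11, without slope terms (0.0778, 0.315 and 0.0669). At each duration every one of these 3 genes was lower under supernatant 1/2.

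Antiviral genes followed: 11 of 25 were lower and none higher, by a list median of -0.39, beside -0.01 over all genes. MX1 was at 6.03, 29.6, 70.7 and 141 TPM under supernatant 1/2 and 8.37, 60.9, 145 and 362 TPM under the combination (-1.08 ± 0.16). IFI6 was lower by 0.64 ± 0.12. RSAD2, the antiviral enzyme viperin, was at 0.618, 1.57, 3.96 and 9.51 TPM under supernatant 1/2 and 0.801, 3.14, 14.6 and 27.1 TPM under the combination (-1.28 ± 0.18). With 1 library left out, between 6 and 13 antiviral genes were lower, and without slope terms in the fit 1 was. CCL2 was at 77.6, 87.7, 55.8 and 17.1 TPM under supernatant 1/2 and 94.3, 183, 184 and 171 TPM under the combination (-1.51 ± 0.28), so that the groups parted most at 24 h. GCH1, the first enzyme of tetrahydrobiopterin synthesis, was lower by 0.82 ± 0.10, IL32 by 0.82 ± 0.11 and INHBA, an activin subunit, by 1.28 ± 0.22. Without slope terms the calls for CCL2 (adjusted p = 0.0572), GCH1 (0.248) and IL32 were lost. Class I chains, immunoproteasome and class II genes were lower in 1 of 8, 2 of 13 and 3 of 16 cases, and none was higher. With 1 library left out these counts ran between 0 and 2, 1 and 3, and 0 and 4. Without slope terms each of the 3 counts was 0. No class II gene was lower without supernatant 1/2 at 6 h, and 1 was without the combination at 6 h or at 12 h.

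**Figure D4:**
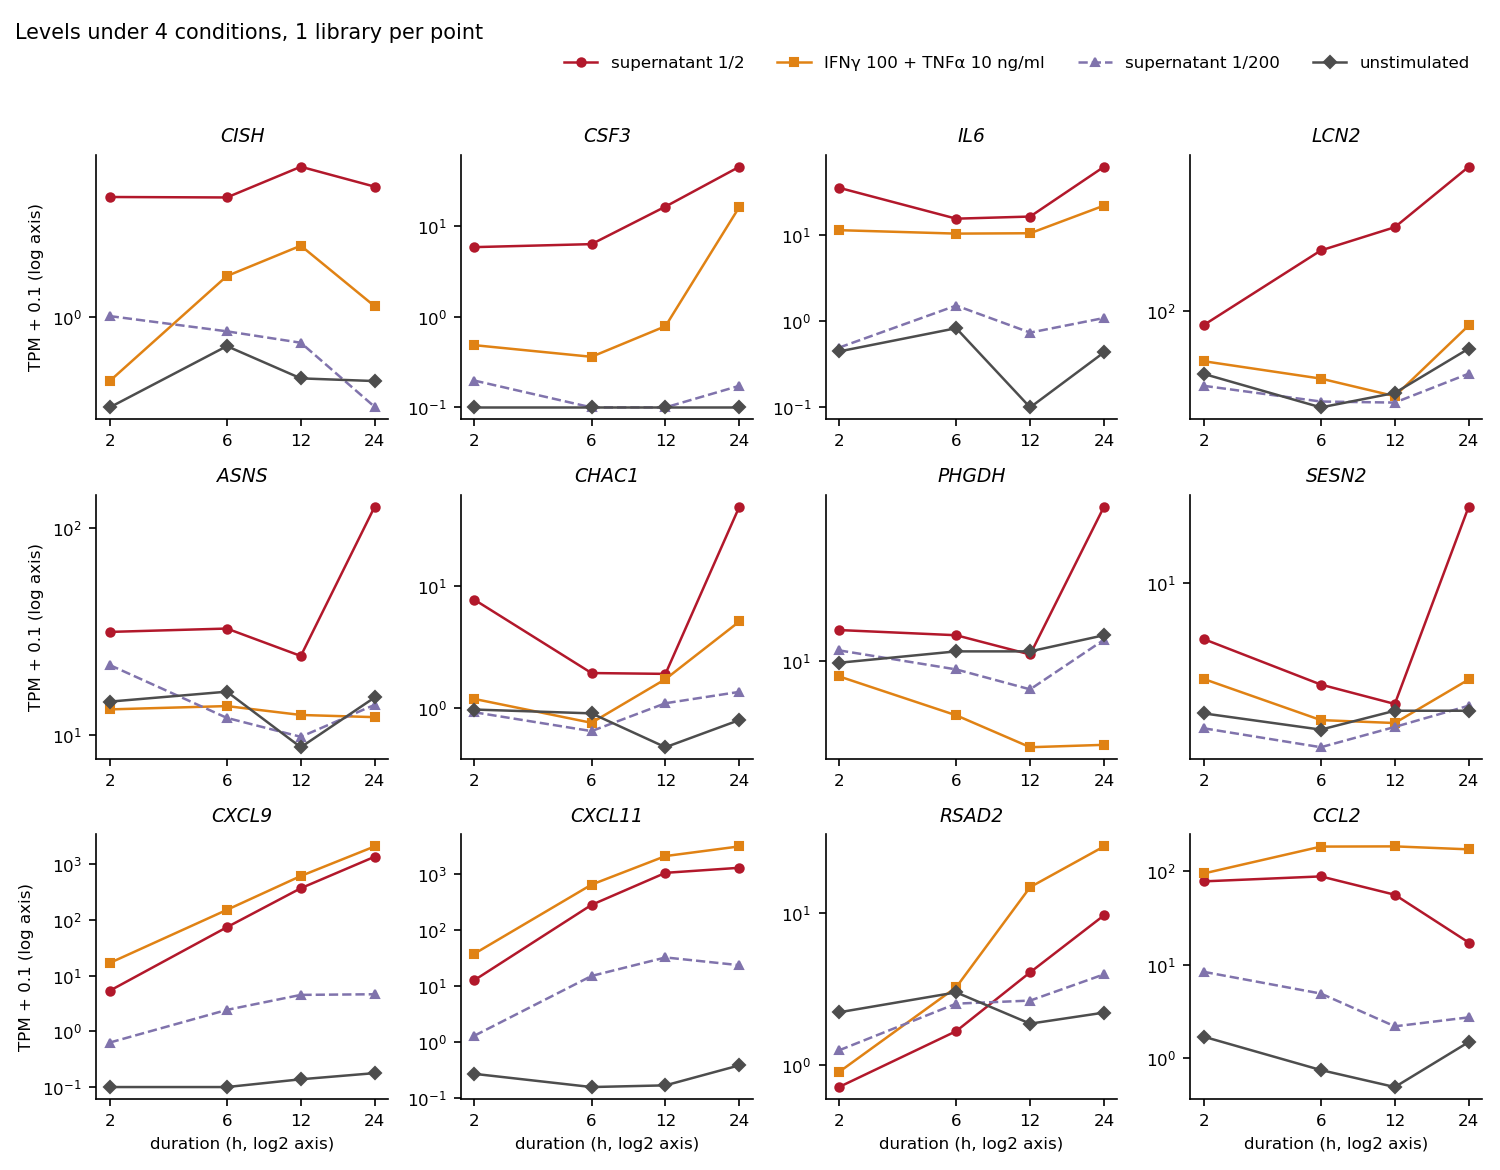
Levels of 12 genes by duration (TPM + 0.1 on a log axis, hours on a log2 axis) under supernatant 1/2, the combination, supernatant 1/200 and in unstimulated cells, 1 library per point. CISH, CSF3 and LCN2 are highest under supernatant 1/2 at all 4 durations, ASNS, CHAC1, PHGDH and SESN2 peak in its 24 h library, and CXCL9, CXCL11 and CCL2 are highest under the combination.

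CISH was at 3.78, 3.76, 5.36 and 4.26 TPM under supernatant 1/2, against 0.386, 1.49, 2.14 and 1.03 TPM under the combination, and was higher by 1.85 ± 0.26 (adjusted p = 4.37e-05). Every supernatant 1/2 library lay above every combination library. CSF3 was at 5.73, 6.19, 16.2 and 44.7 TPM under supernatant 1/2, against 0.385, 0.261, 0.685 and 16.1 TPM, and was higher by 3.62 ± 0.40. The difference was 5.92 without the 2 h library of the combination, 4.67 with 2 h and 6 h alone and 2.67 without slope terms. It did not pass with 12 h and 24 h alone (2.20, adjusted p = 0.0682) or with only the 8 libraries compared (2.69, 0.176). LCN2, a protein that binds bacterial siderophores, was at 89.7, 159, 190 and 302 TPM under supernatant 1/2, against 68.0, 59.5, 52.0 and 89.5 TPM, and was higher by 1.27 ± 0.09. VEGFA, the endothelial growth factor, was higher by 1.09 ± 0.14, the neutrophil chemokine CXCL5 by 1.02 ± 0.22 and the RNase ZC3H12A by 0.78 ± 0.16. Without slope terms the call for CXCL5 was lost (adjusted p = 0.0975). IL6 was higher by 1.15 ± 0.29, at 35.3, 15.4, 16.3 and 62.0 TPM under supernatant 1/2 and 11.3, 10.3, 10.4 and 21.9 TPM under the combination. The call for IL6 was lost without the 24 h (0.62, adjusted p = 0.275) or 2 h (0.63, 0.356) library of supernatant 1/2 and without the 2 h (1.14, 0.142) or 24 h (1.15, 0.0866) library of the combination. It was also lost without slope terms. CSF2 and CD274 did not pass in this contrast, at -0.01 ± 0.35 and -0.01 ± 0.18.

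Targets of ATF4, the transcription factor of the integrated stress and amino-acid response, were higher than under the combination in 13 of 19 tested cases and lower in none, with a median of 0.65; without supernatant 1/2 at 24 h 2 were lower. ASNS, asparagine synthetase, was at 31.4, 32.6, 24.0 and 127 TPM under supernatant 1/2, against 13.2, 13.7, 12.4 and 12.1 TPM under the combination, and was higher by 1.48 ± 0.15 (adjusted p = 1.3e-06). PHGDH, the first enzyme of serine synthesis, was at 13.1, 12.5, 10.5 and 39.9 TPM under supernatant 1/2, against 8.61, 6.04, 4.51 and 4.61 TPM, and was higher by 1.27 ± 0.15. PSAT1, the next enzyme, was higher by 1.17 ± 0.18, or by 0.72 without the 24 h library of supernatant 1/2. GDF15, a stress-induced cytokine, was at 2.93, 4.82, 3.35 and 23.4 TPM under supernatant 1/2, against 1.70, 1.54, 1.11 and 1.56 TPM, and was higher by 1.98 ± 0.26. Its change from unstimulated cells was smaller and did not pass (0.42, adjusted p = 0.122). In all 4 genes the supernatant 1/2 library was above its combination partner at every duration, and the 24 h library was the highest of its series. CHAC1, a glutathione-degrading enzyme, was at 7.65, 1.84, 1.81 and 44.9 TPM under supernatant 1/2, against 1.09, 0.658, 1.63 and 5.04 TPM (2.16 ± 0.42), and SESN2, a brake on mTORC1, differed by 1.25 ± 0.29. CHAC1 and SESN2 lost their calls without the 24 h library (0.68, adjusted p = 0.146, and 0.28, 0.285) or the 2 h library (0.56, 0.464, and 0.40, 0.454) of supernatant 1/2, and SESN2 also without the 2 h library of the combination (1.3, 0.0725). Without the 24 h or the 2 h library of supernatant 1/2, 6 ATF4 targets were higher, and without the 2 h library of the combination 7. With only the 8 libraries compared in the fit 1 was higher, with 2 h and 6 h alone 4, and with 12 h and 24 h alone 6.

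Cytosolic tRNA synthetases, many of which ATF4 also drives, were higher than under the combination in 10 of 20 cases and lower in 1. With only the 8 libraries compared in the fit 0 were higher, and with 2 h and 6 h or with 12 h and 24 h alone 4. AARS1 was at 57.3, 57.8, 53.9 and 129 TPM under supernatant 1/2 and 44.4, 35.2, 35.3 and 47.4 TPM under the combination, a difference of 0.71 ± 0.08. SARS1 differed by 0.57 ± 0.07, while WARS1 did not pass (0.19 ± 0.17). Glycolysis and HIF target genes were lower in 12 of 23 cases and higher in 1, VEGFA. That count was 4 without the 24 h or the 2 h library of supernatant 1/2 and 2 without the 24 h library of the combination. It was 0 without the 2 h library of the combination or without slope terms. Against unstimulated cells, 12 of the 19 ATF4 targets rose and 2 fell, with 0 to 5 falling as single libraries were left out. ASNS rose there by 1.68 ± 0.15 and CHAC1 by 3.98 ± 0.49, or 2.47 and 2.37 without the 24 h or the 2 h library of supernatant 1/2. GDF15 did not pass (0.42 ± 0.22, adjusted p = 0.122), though it did without the 12 h library of supernatant 1/2 (0.66, 0.00714).

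**Figure D5:**
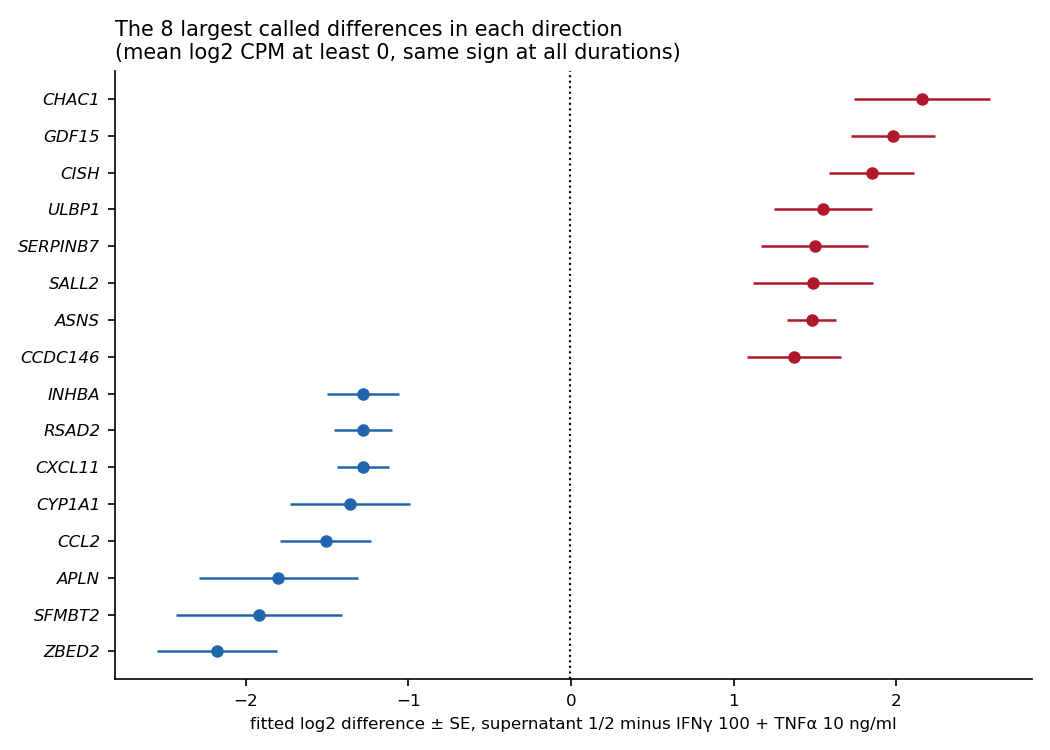
The 8 largest called differences in each direction between supernatant 1/2 and the combination among genes with a mean log2 CPM of at least 0 over the 44 libraries and the same sign at all 4 durations, which leaves out CSF3 (3.62), as fitted log2 difference ± SE (n = 4 libraries each). CHAC1, GDF15 and CISH lie highest among these at 2.16, 1.98 and 1.85, and ZBED2, SFMBT2 and APLN lowest at -2.18, -1.92 and -1.80.

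Others of the largest differences from the combination were of genes at low level. ULBP1, a ligand of the NKG2D receptor, was at 1.45, 1.38, 0.945 and 8.08 TPM under supernatant 1/2, against 1.09, 0.511, 0.419 and 1.00 TPM, and was higher by 1.55 ± 0.30. It lost its call without the 24 h (0.95, adjusted p = 0.0527) or the 2 h (1.08, 0.0744) library of supernatant 1/2, and the serpin SERPINB7 (1.5 ± 0.33) likewise (0.95, 0.0609, and 0.78, 0.190). CCDC146 (1.37 ± 0.29) failed without the 2 h library of the combination (1.16, 0.0670). SALL2 (1.49 ± 0.37) failed without the 6 h (1.16, 0.0665) or 12 h (1.2, 0.0532) library of supernatant 1/2 or the 2 h (1.34, 0.135) or 24 h (1.42, 0.0728) library of the combination. Among those that were lower, APLN failed without supernatant 1/2 at 6 h (-1.37, 0.0553) or the combination at 2 h (-0.98, 0.412) or 24 h (-1.49, 0.101), SFMBT2 without supernatant 1/2 at 24 h (-1.69, 0.0576) or the combination at 6 h (-1.56, 0.101) or 24 h (-1.82, 0.0696), and CYP1A1 (-1.36 ± 0.37) without supernatant 1/2 at 12 h (-1.16, 0.0659) or the combination at 6 h (-1.04, 0.167). ZBED2, a zinc finger factor, was at 0.853, 0.293, 0.167 and 0.331 TPM under supernatant 1/2 and 1.36, 1.88, 1.2 and 1.75 TPM under the combination. Its difference of -2.18 ± 0.37 held in every fit that left out 1 library.

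Supernatant 1/2 stood far above supernatant 1/200 in chemokines and NF-κB targets, with smaller differences in class I genes. This contrast asks what remains at the next dilution, and it uses the same supernatant 1/2 libraries as the other contrasts, so the contrasts are not independent. Against supernatant 1/200, 17% of genes were higher and 14.8% lower under supernatant 1/2. CXCL1 was at 387, 172, 191 and 214 TPM under supernatant 1/2, against 5.88, 5.40, 3.85 and 5.21 TPM under supernatant 1/200, and was higher by 5.70 ± 0.39 (adjusted p = 4.46e-10). NFKBIA was at 970, 598, 611 and 564 TPM under supernatant 1/2, against 68.4, 75.4, 70.4 and 72.7 TPM, and was higher by 3.14 ± 0.17. TNF, at 2.57 to 10.1 TPM against 0 to 0.213 TPM, was higher by 5.71 ± 0.54. TAP1 was higher by 0.79 ± 0.14, CD74 by 0.96 ± 0.19 and IDO1 by 1.78 ± 0.17.

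CXCR3 ligands were also far apart in this contrast. CXCL10 was at 134, 1680, 3730 and 4270 TPM under supernatant 1/2, against 6.57, 50.7, 50.2 and 36.2 TPM under supernatant 1/200, and was higher by 5.63 ± 0.21. CXCL9 was higher by 5.68 ± 0.13. The list medians were 5.63 for CXCR3 ligands, 5.38 for neutrophil chemokines, 1.42 for NF-κB feedback genes, 0.85 for class II, 0.34 for class I chains and 0.22 for the immunoproteasome, beside -0.02 over all genes. ADORA2A, a receptor of adenosine, was at 3.37 to 18.1 TPM under supernatant 1/2 and 0 to 0.830 TPM under supernatant 1/200, and PTAFR, the receptor of platelet-activating factor, at 0.981 to 58.2 TPM and 0.103 to 0.433 TPM. ADORA2A overlaps an antisense gene and a readthrough gene. All 25 replication genes were lower under supernatant 1/2 than under supernatant 1/200, and 23 of 25 mitosis genes. PADI1 was lower by 3.02 ± 0.29 and CYP1A1 by 2.75 ± 0.29. APLN was lower by 1.92 ± 0.47, or by 3.06 and 3.01 without the 12 h or the 2 h library of supernatant 1/2, and NOG, an inhibitor of BMP ligands, by 2.09 ± 0.32.

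Promoter letters were tallied for the lists, as a description. Of the 15 genes that rose most, 10 had a RefSeq promoter in the table, of which 7 held a κB match and 4 an ISRE match. None of the 9 promoters of genes that fell most held a κB match and 1 held an ISRE match. An ISRE match stood in 13 of 19 antiviral promoters, beside 3.02% of all promoters, and a κB match in 5 of 6 neutrophil chemokine promoters, beside 5.67%. CXCL10 and TAP1, printed above, hold both. Many other lists held fewer matches. An ISRE match stood in 5 of 12 immunoproteasome and peptide loading, 1 of 5 guanylate-binding and 0 of 13 class II promoters. A κB match stood in 4 of 15 NF-κB feedback promoters, and a CARE match in 3 of 17 ATF4 target promoters. The 8 genes with the largest positive differences from the combination in that plot held a CARE match in 2 cases, ASNS and CHAC1, and a GAS match in 2, and no ISRE match.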

How the data were processed

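RNA of OVCAR5 cells under 11 treatments at 4 durations was sequenced as stranded mRNA libraries, 1 library per treatment and duration, 44 in all, per the labels' protocols. The authors deposited each estimated count per gene, and the TPM value made from it with the effective length, for 33538 Ensembl genes per library. Per the submitters' processing notes the tools included STAR and Salmon and the build was GRCh38, with no versions. TPM served to show levels and counts served for tests.

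Counts were rounded to whole numbers (18.6% to 20.6% of genes had a fractional value). Genes were kept by filterByExpr on treatment (minimum count 10, minimum total 15), leaving 14469. edgeR 4.0.16 in R 4.3.3 fitted all 44 libraries (9586115 to 16270106 counts) by robust quasi-likelihood with TMM factors, with terms for duration, treatment and a slope per treatment on centered log2 duration (24 coefficients, 20 residual degrees of freedom). P-values were Benjamini-Hochberg adjusted over all 14469 genes, with a threshold of 0.05; glmTreat tested against 2-fold. An SE is the absolute log2 change over the root of F. Differences at single durations are log2 CPM with a prior count of 2. Scripts were tested on simulated data.

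The lists and the comparison were chosen with earlier results of these data known. Genes named are list members and, by a rule, the 15 largest changes in each direction against unstimulated cells (8 for each other contrast) among called genes with a mean log2 CPM of at least 0 and, except for slopes, the same sign at all 4 durations. Names came from a table of Ensembl IDs (33113 IDs) and GENCODE v29 (343), which also gave coordinates; 82 had none. Alternatives were DESeq2 1.42.0, its size factors, no count filter, no slopes, early or late durations, 8 libraries and single libraries left out. Fits of early or late durations and of 8 libraries had no slope terms, except the 8-library fit that tested the slope. Counts of lists against the combination under these alternatives were added after seeing the data.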

Additional observations from a re-analysis of the deposited data

Results flagged for a closer look

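The effect of supernatant 1/2 differed between durations, by the test of its slope, in 1207 genes where it rose with duration and 1144 where it fell. Among genes named here, rising slopes per doubling of duration were those of HLA-DPA1 (3.13), HLA-DRA (2.48), HLA-DRB1 (2.48), CD74 (2.14), SERPING1 (2.08), PLA1A (2.05), CTSS (1.98) and TNFSF15 (1.94), and falling ones those of PADI1 (-1.62), SFMBT2 (-1.58), ADH1C (-1.50), METTL7A (-1.48), ANO3 (-1.37), ELF3 (-1.35), SGK2 (-1.34) and THSD7A (-1.34). HLA-DRA, HLA-DRB1, CD74, SERPING1, TNFSF15, SGK2 and ANO3 passed in every fit that left out 1 library.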

How the results depend on the processing

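Each group had 1 library per duration, so depth and scatter of single libraries limit every value. Against unstimulated cells 6281 genes changed. The count was 1450 with the 2 h and 6 h libraries alone, with 69.7% of calls higher in place of 52.0%. It was 1188 with only the 8 libraries in the fit, with 73.7% higher. Both of these fits had fewer libraries and also no slope terms. With all 44 libraries and no slope terms the count was 5499. It was 4993 to 6029 as single libraries were left out. Past 2-fold the count was 158 with 2 h and 6 h alone and 151 with 8 libraries, in place of 630. It was 566 to 630 with 1 library left out. Slopes were called in 466 genes with 8 libraries and in 460 (without unstimulated 2 h) to 2590 with 1 library left out. Against the combination the count was 442 without slope terms, 32 at 2 h and 6 h, 569 at 12 h and 24 h, 69 with 8 libraries, and 667 (without the combination at 2 h) to 1364 with 1 left out. Against supernatant 1/200 it was 635 at 2 h and 6 h, 1058 with 8 libraries, and 2871 (without supernatant 1/200 at 2 h) to 4375. With 2 h and 6 h alone RSAD2 was at -0.28 against unstimulated cells, SFMBT2 at 0.22 and ANO3 at 0.81, each turned in sign and none past the test. The causes of these shifts were not tested. Of 120 differences of named genes at single durations 50 moved by more than the gene's SE with a prior count of 0.5 and 59 with 5, in place of 2. Replicate numbers come from accession order only and were not used for pairing. Libraries of the same duration were set beside each other through the duration term of the fit.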
